A study of Mus musculus with 1 sample.

Results

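Histone variants are the histone proteins encoded outside the usual S phase gene clusters, or outside their usual regulation, and 10 of their genes were followed here across the cell classes of the early postnatal mouse testis. They were taken by symbol from the gene list that accompanies the UMI (unique molecular identifier) counts, and all 10 were found among the 27998 listed genes. H2afz, H2afv, H2afx, H2afy, H3f3a, H3f3b, H1f0 and H1fx are general variants, and Hist1h2ba and Hist1h2aa are testis variants. The 8 general variants had between 192 and 31667 UMIs in the cells kept, while Hist1h2aa had 25 and Hist1h2ba 4. The testis variants thus did not reach the minimum of 50 UMIs set for a comparison between classes. They are described by their counts and left out of the counts of members past 2-fold in the main setting. Ratios printed for them fall below that minimum and are descriptive.

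Single-cell RNA sequencing had been carried out to ask how loss of ZSCAN2 alters spermatogonia, and only the wild type library was analysed here. Testis cells of 3 wild-type C57BL/6 mice at postnatal day 8 were enriched for THY1+ cells, a fraction in which undifferentiated spermatogonia are concentrated. Some unselected cells were added back so that differentiating spermatogonia would be sampled. The library also held somatic cells, and no label tells selected from added cells. Equal numbers of THY1+ cells from each mouse were combined for 1 library, no label ties a cell to a mouse, and the proportions of the classes reflect the mixture loaded. Without replicates no test was possible, and each interval below is at the 95% level and covers counting error only.

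The matrix held 970 barcodes and 11358045 UMIs, with 2655 to 44915 UMIs per barcode and a median of 9115. After filtering, 920 cells were clustered. Of these, 324 were germ cells, namely 112 SSC-like (spermatogonial stem cell-like), 79 progenitor-like and 133 differentiating-like cells, and 596 were somatic, namely 255 Sertoli-like, 186 stromal-like, 94 peritubular myoid-like and 35 macrophage-like cells and a mixed small cluster of 26 cells that was left unnamed, after its genes were seen, because T cell genes and the pericyte gene Rgs5 both led it. Of the differentiating-like cells, 32 formed a cluster led by Prss50 and Esx1 (the Prss50/Esx1 cluster) and the others a cluster with Stra8 and Kit among its leading genes (the Kit/Stra8 cluster). Median depth was 10878 UMIs for the differentiating-like, 19446 for the progenitor-like and 22293 for the SSC-like class, against 8343 in Sertoli-like, 8370.5 in stromal-like, 7446 in peritubular myoid-like and 13010 in macrophage-like cells. The 6 germ cell markers used for naming summed to 1237 to 1542 CPM (UMIs per 1000000 UMIs of a class) in the germ cell clusters and to 21.6 to 33.1 CPM in the named somatic classes. SSC markers summed to 197 CPM for the SSC-like class, 78.1 CPM for the progenitor-like class and at most 10.3 CPM in the differentiating-like clusters. Progenitor markers were highest in progenitor-like cells (727 CPM). They stood at 508.8 CPM in Sertoli-like, 433.9 CPM in SSC-like, 417.5 CPM in Kit/Stra8 and 61.55 CPM in Prss50/Esx1 cells. Differentiation markers were highest in the Kit/Stra8 (2478 CPM) and Prss50/Esx1 clusters (2218 CPM). Conversely, the 7 Sertoli cell markers summed to 76.1 to 86.2 CPM in the germ cell clusters. The stromal-like class also held UMIs of all 6 Leydig cell markers, at 447.7 CPM in sum. Mitochondrial genes took 6.81% of the UMIs of germ cells and 4.57% of those of somatic cells, and 1 hemoglobin-rich barcode brought the progenitor-like class to 7107 CPM of red blood cell genes. These classes were rebuilt from fixed markers and need not match the populations of the study.

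Canonical histones are made in S phase, when new DNA is packaged, from transcripts that end in a stem loop and carry no poly(A) tail. Most variant genes are instead transcribed throughout the cell cycle into polyadenylated transcripts, and their proteins replace canonical histones at chosen places: H2A.Z at promoters, H3.3 at active genes and heterochromatin, H2A.X as the substrate phosphorylated at DNA breaks, macroH2A at silent chromatin. In the male germline, TH2A and TH2B, the products of Hist1h2aa and Hist1h2ba, are known for their abundance in spermatocytes and for the later exchange of histones for transition proteins and protamines.

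The library was primed on poly(A), so the transcript ends bear on which histone genes could be counted. A search of the annotated transcripts for the histone stem loop consensus, on the sense strand only, found it in 46 of 67 clustered histone genes of the Hist1h to Hist4h groups (68.66%) and in 5.586% of 21877 coding genes. Among the 8 general variants it occurred in H2afx alone, 838 bases before the end of a transcript that also carries the poly(A) signal ATTAAA 35 bases before its end. It is shown because H2afx thereby carries the marks of both kinds of histone gene, and all of it is in capitals because all of it is the match.
H2afx stem loop: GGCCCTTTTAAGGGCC
The poly(A) signal AATAAA or ATTAAA was found 21 to 93 bases before the end in 7 of the 8 general variants, and not in the H2afy transcript used. The 2 testis variants are annotated in GENCODE (mouse assembly GRCm38) with coding sequence and stop codon alone, 384 bases for Hist1h2ba and 390 for Hist1h2aa, so that reads from beyond the stop codon could be counted only if the authors' annotation was longer there. The search for the stem loop and the poly(A) signal therefore did not reach beyond their stop codons and cannot say whether these 2 genes carry either. The same limit would hold for any clustered histone gene annotated in this way.

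The testis variants lie side by side on chromosome 13, Hist1h2ba on the minus strand from 23933773 to 23934156 and Hist1h2aa on the plus strand from 23934462 to 23934851, each as a single exon, and they share the bases between their starts. The core of that shared promoter is printed here since Hist1h2aa had 24 of its 25 UMIs in germ cells. Hist1h2ba had 4 UMIs, all in germ cells, which are too few to read a direction. It is the GRCm38 plus strand from RefSeq at chr13:23934245-23934410, beginning 89 bases from the RefSeq start of Hist1h2ba and ending 27 bases from that of Hist1h2aa. Capitals mark the motifs searched on both strands, which do not overlap one another: TATAAA (on the minus strand at the left end and the plus strand at the right end), CCAAT (on the minus strand it reads as the reverse complement) and the octamer ATGCAAAT.
Shared promoter of Hist1h2ba and Hist1h2aa: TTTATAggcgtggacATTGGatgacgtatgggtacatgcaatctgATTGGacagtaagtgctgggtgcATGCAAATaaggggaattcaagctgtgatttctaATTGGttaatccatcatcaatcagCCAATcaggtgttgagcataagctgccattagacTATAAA
The core held 1 octamer, 4 CCAAT and 2 TATAAA matches. Of the 32851 RefSeq promoters of 300 bases, 1.735% held the octamer, 37.41% CCAAT and 13.62% TATAAA. A promoter was found for 9 of the 10 members, and besides the testis pair only H3f3b held the octamer and TATAAA. A match describes letters and does not show binding.

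Both testis variants were barely detected, and nearly all of their UMIs came from germ cells. Hist1h2aa, which encodes TH2A, had 24 UMIs in 20 of 324 germ cells and 1 UMI in 1 of 596 somatic cells, a Sertoli-like cell. No cell held more than 2 of them. By class this was 9 UMIs in SSC-like cells (3.68 CPM, interval 1.68 to 6.99), 0 in progenitor-like cells (up to 2.07 CPM, the level 3 UMIs would give), 8 in the Kit/Stra8 cluster (6.36 CPM, 2.75 to 12.5) and 7 in the Prss50/Esx1 cluster (17.2 CPM, 6.93 to 35.5). The log2 ratio of germ over somatic cells was 4.53 (1.92 to 9.90), and that of differentiating-like over SSC-like cells was 1.29 (0.01 to 2.67). Under alternatives the latter ran from 0.15 (resolution 1.2) to 2.57 (counts split), so these few UMIs do not settle its size. The intervals of SSC-like cells and the Kit/Stra8 cluster overlapped, as did those of the 2 differentiating-like clusters (log2 ratio 1.44, -0.26 to 3.10). All 8 UMIs of the Kit/Stra8 cluster were in its deeper cells, whereas its 51 shallow cells, with a median of 4079 UMIs, held 0, where up to 11.6 CPM could have gone undetected.

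A Hist1h2aa UMI was held by 6.17% of germ cells (3.81 to 9.37%, exact binomial) and by 0.168% of somatic cells (0.00425 to 0.931%), with median depths of 18216.5 and 8194 UMIs. With every cell thinned to 5000 UMIs, which left out 45 germ and 48 somatic cells, the shares were 3.23% (1.49 to 6.04%) and 0.182% (0.00462 to 1.01%). Among germ cells the thinned share was 16.1% in the Prss50/Esx1 cluster (5.45 to 33.7%). It was 3.03% in the Kit/Stra8 cluster (0.369 to 10.5%) and 1.82% in SSC-like cells (0.221 to 6.41%), and both intervals overlapped that of the Prss50/Esx1 cluster. In progenitor-like cells 0 of 79 held a UMI, which allows a share of cells with a UMI of up to 3.797% by the floor of 3 counts and 4.56% by the exact interval, and the latter overlapped that of SSC-like cells, where 7 of 112 held one (2.55 to 12.4%).

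Hist1h2ba, which encodes TH2B, had 4 UMIs in 4 germ cells, 3 of them SSC-like and 1 in the Kit/Stra8 cluster, and 0 in 596 somatic cells, which allows a share of cells with a UMI of up to 0.503% by the floor of 3 counts and 0.617% by the exact interval. Set against the floor of 3 UMIs over all somatic cells, its CPM in germ cells was 1.29-fold, without counting error of the germ UMIs. The exact interval of the log2 ratio of germ over somatic cells reached down to -0.65, so no direction is read. Over the last 300 bases of its transcript Hist1h2ba matched Hist1h2bj at 94.3% over 298 bases, and Hist1h2aa matched Gm11336 at 92.54% over 201 bases, so both counts are uncertain. No gene matched a member at 95% or more over at least 90 bases.

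**Figure D1:**
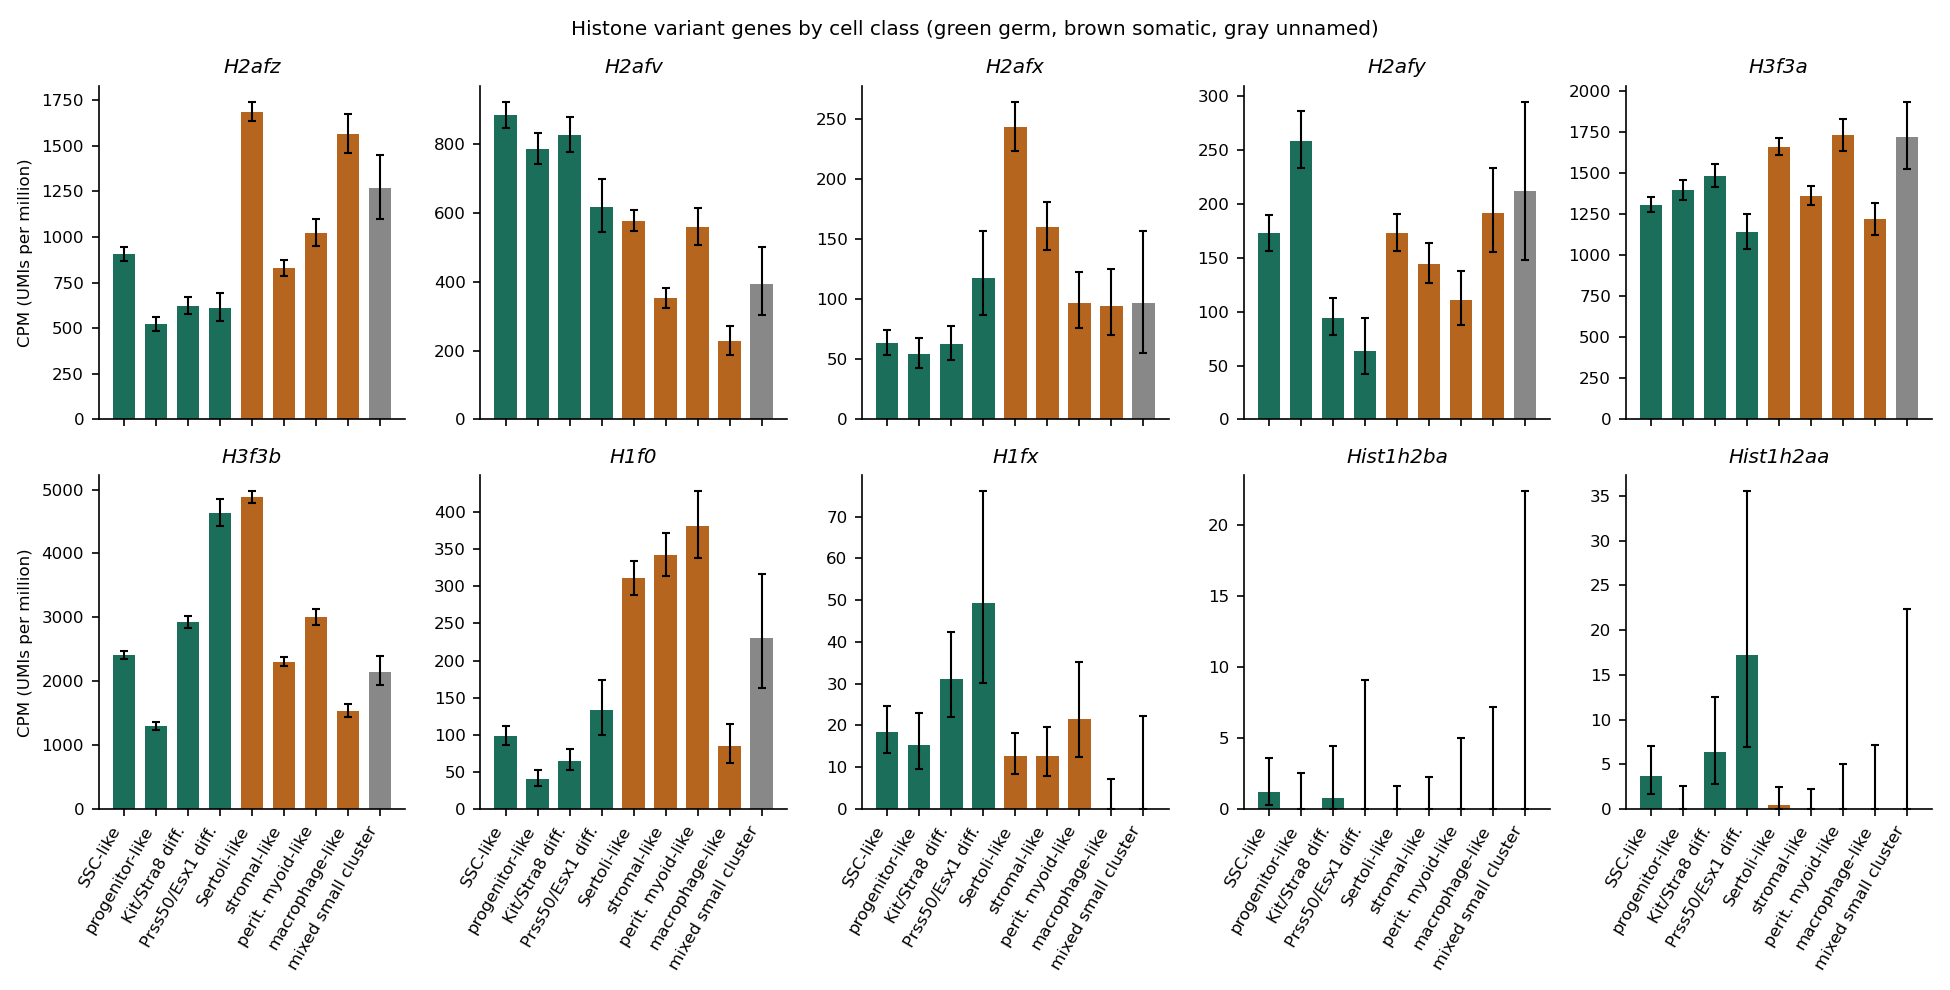
Bars show the CPM of each gene, from summed UMIs, in the 4 germ cell clusters (green), 4 named somatic classes (brown) and the mixed small cluster (gray), with exact Poisson 95% intervals and a separate linear axis for each gene. Bars of H2afz and H1f0 stand above every germ cell cluster in most named somatic classes, and those of H2afx in Sertoli-like and stromal-like cells only. H2afv is higher in the germ cell clusters, though the interval of the Prss50/Esx1 cluster overlaps those of Sertoli-like and peritubular myoid-like cells. H3f3b is lowest in progenitor-like cells, and the testis variants have intervals that reach far above their few UMIs.

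For the general variants the comparison of germ with somatic cells asks whether spermatogonia at this age use them at other levels than their neighbours. None of the 8 was at least 2-fold higher in germ cells, where 24% of 11027 genes with at least 50 UMIs were, and 2 of 8, H2afx and H1f0, were at least 2-fold lower, where 26.7% of genes were. The members' counts are thus not above the background in either direction. Their median log2 ratio was -0.35, that of all 11027 genes 0.07.

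**Figure D2:**
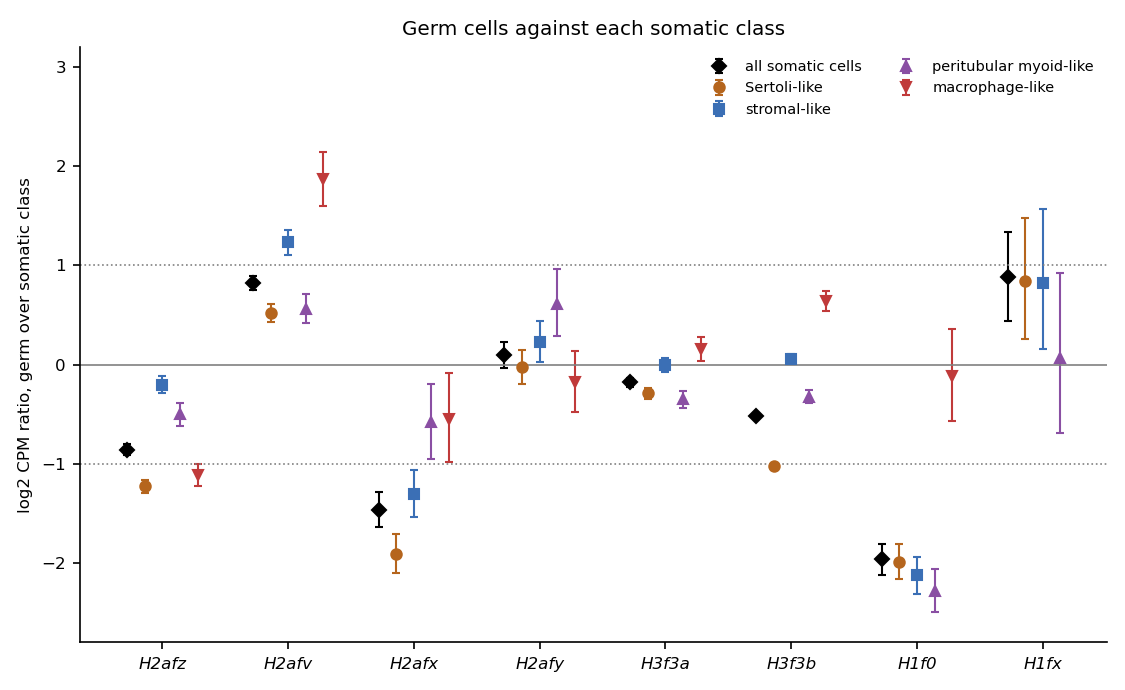
Points give the log2 ratio of CPM in all germ cells over all somatic cells (black) and over each named somatic class, with exact conditional binomial 95% intervals, for the 8 general variants; dotted lines mark 2-fold. H1f0 lies near -2 against every class other than macrophage-like cells, where it is -0.12, and the ratio of H1fx to macrophage-like cells is not drawn since those cells held 0 UMIs.

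H2A.Z is encoded by H2afz (chromosome 3, 137864487 to 137866922, plus strand) and H2afv (chromosome 11, 6427229 to 6444443, minus strand), whose products of 128 residues differ at 3 positions. In summed UMIs the genes went in opposite directions between germ and somatic cells. H2afz had 721 CPM (698.8 to 743.6) in germ cells and 1307 CPM (1277 to 1338) in somatic cells, a log2 ratio of -0.86 (-0.91 to -0.80). Against stromal-like cells alone the ratio was -0.20 (-0.29 to -0.11). The median germ cell had 673.8 CPM and the median somatic cell 700.3 CPM. Among somatic classes the median cell had 377.3 CPM in stromal-like, 466 CPM in peritubular myoid-like, 1124 CPM in macrophage-like and 1189 CPM in Sertoli-like cells. H2afv had 826.5 CPM (802.7 to 850.7) in germ cells and 466.3 CPM (448.2 to 485) in somatic cells, a log2 ratio of 0.83 (0.76 to 0.90).

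Since the chance of capturing a transcript cancels when a ratio of genes is compared between classes, the balance of the pair was followed as well. There were 0.872 H2afz UMIs for each H2afv UMI in germ cells (0.836 to 0.910) and 2.80 in somatic cells (2.68 to 2.94), a log2 difference of -1.68 (-1.77 to -1.59). All 4 germ cell clusters, at 0.662 to 1.03, lay below all 4 named somatic classes, at 1.83 in peritubular myoid-like, 2.36 in stromal-like, 2.92 in Sertoli-like and 6.90 in macrophage-like cells. Intervals of the nearest pair, SSC-like (0.967 to 1.09) and peritubular myoid-like (1.62 to 2.06), did not overlap.

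Within the germline H2afz was highest in SSC-like cells, at 908 CPM (870.5 to 946.5), and lowest in progenitor-like cells, at 520.7 CPM (484.1 to 559.2). It then stood at 623.5 CPM in the Kit/Stra8 cluster and 610.6 CPM in the Prss50/Esx1 cluster, which did not differ beyond counting error (log2 ratio -0.03, -0.24 to 0.18). H2afv varied less, with 885 CPM in SSC-like, 826 CPM in the Kit/Stra8 cluster, then 786 CPM in progenitor-like cells and last 618 CPM in the Prss50/Esx1 cluster. The log2 ratio of progenitor-like over SSC-like cells was -0.80 (-0.92 to -0.68) for H2afz and -0.17 (-0.28 to -0.07) for H2afv, and the log2 difference in their balance was -0.63 (-0.79 to -0.47). When cells were clustered on one random set of UMIs and measured in the other, the H2afz ratio was -0.52, with 2000 variable genes chosen by vst it was -0.40, and at resolution 1.2 it was -0.21. The direction held in all 11 alternatives and the size did not.

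**Figure D3:**
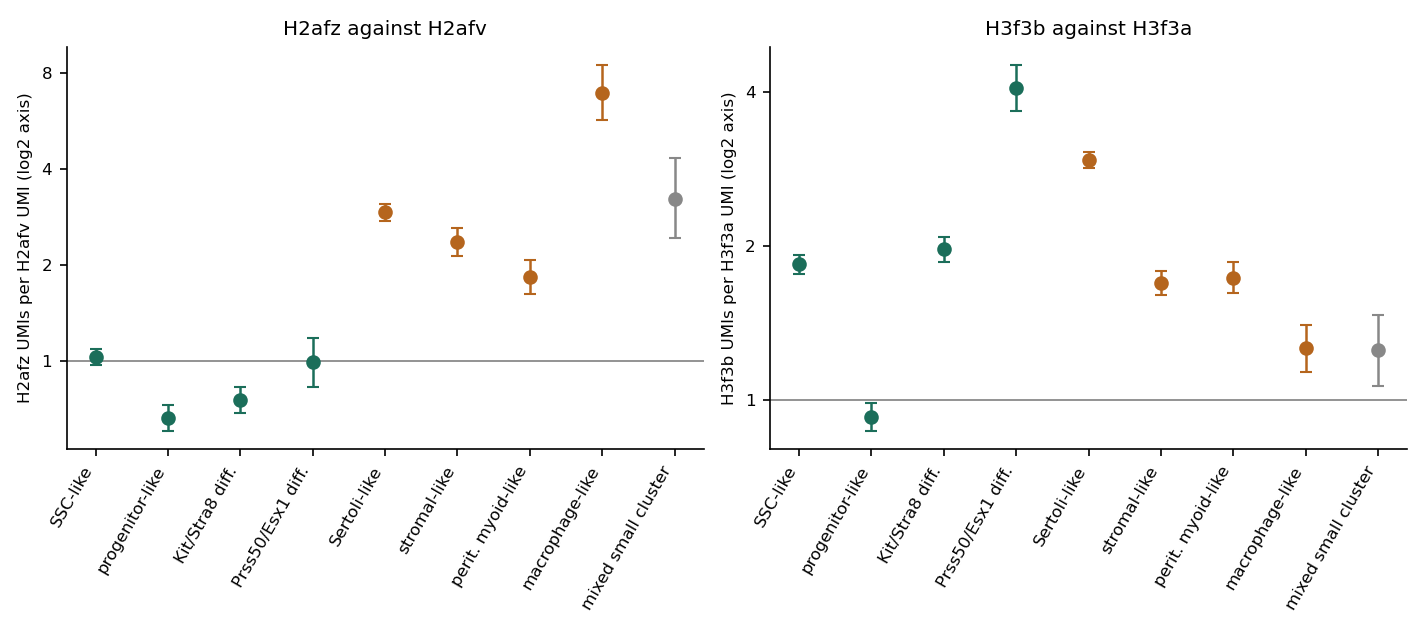
Points give the number of H2afz UMIs per H2afv UMI (left) and of H3f3b UMIs per H3f3a UMI (right) in each class on log2 axes, with 95% intervals from the exact binomial share; green, brown and gray mark germ, somatic and unnamed classes. The left panel separates germ cells (0.662 to 1.03) from somatic classes (1.83 to 6.90), while the right panel runs from 0.928 in progenitor-like cells to 4.07 in the Prss50/Esx1 cluster.

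H2A.X comes from H2afx (chromosome 9, 44334694 to 44336077, plus strand, a single exon). H2afx had 65.0 CPM (58.5 to 72.1) in germ cells and 179 CPM (167.8 to 190.6) in somatic cells, a log2 ratio of -1.46 (-1.64 to -1.29). In summed UMIs each named somatic class had a higher level than the germ cells as a whole, from 94.95 CPM in macrophage-like (70.2 to 125.5) and 97.2 CPM in peritubular myoid-like to 160.2 CPM in stromal-like and 243.5 CPM in Sertoli-like cells (223.7 to 264.6). The median cell, however, had 0 CPM in stromal-like, peritubular myoid-like and macrophage-like cells, 40.8 CPM in germ cells and 134.1 CPM in Sertoli-like cells. Within the germline the levels of progenitor-like (54.6 CPM), Kit/Stra8 (62.8 CPM) and SSC-like cells (63.4 CPM) did not differ beyond counting error. That of the Prss50/Esx1 cluster, at 118.2 CPM (87.1 to 156.7), was higher than in the Kit/Stra8 cluster, with a log2 ratio of 0.91 (0.36 to 1.45). A UMI of H2afx was found in 57.4% of germ cells and 51% of somatic cells, but in 24.7% and 37.2% once cells were thinned to 5000 UMIs, so the order of the shares at full depth was opposite to that of the CPM and nothing is read from it. By class the thinned share was 51.9% (45.3 to 58.5%) in Sertoli-like, 26.2% in stromal-like, 22.2% in peritubular myoid-like and 31.4% in macrophage-like cells. Of these only the Sertoli-like interval lay apart from that of germ cells (19.8 to 30.2%).

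MacroH2A1 is encoded by H2afy (chromosome 13, 56073619 to 56136361, minus strand), whose level did not separate germ from somatic cells. It had 169.6 CPM (158.9 to 180.8) and 158.6 CPM (148.1 to 169.6) respectively, a log2 ratio of 0.10 (-0.04 to 0.23), which was -0.49 under the mitochondrial limit of 5%. It separated germ cells from one another instead. H2afy had 173 CPM in SSC-like cells (156.9 to 190.3), 258.6 CPM in progenitor-like cells (233.1 to 286.2), 94.6 CPM in the Kit/Stra8 cluster (78.4 to 113.2) and 64.0 CPM in the Prss50/Esx1 cluster (41.8 to 93.8). Progenitor-like cells thus had the highest value of the named classes, next to macrophage-like cells at 191.8 CPM (155.9 to 233.5), whose interval touched theirs. The 2 differentiating-like clusters had the lowest values and did not differ from each other beyond counting error (log2 ratio -0.56, -1.24 to 0.06), and the interval of the Kit/Stra8 cluster overlapped that of peritubular myoid-like cells (110.7 CPM, 88.1 to 137.5). The log2 ratio of differentiating-like over progenitor-like cells was -1.57 (-1.86 to -1.29), and that over SSC-like cells was -0.99 (-1.27 to -0.71), just short of 2-fold. With cells clustered on one set of UMIs and measured in the other, the latter was -1.04. The middle cell of the progenitor-like class had 247.4 CPM and that of the differentiating-like class 0, with an upper quartile of 103.3 CPM.

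H3.3 is encoded by H3f3a (chromosome 1, 180800832 to 180813943, minus strand) and H3f3b (chromosome 11, 116021912 to 116027962, minus strand). Their products, of 136 residues, are identical. H3f3a was even, between 1140 and 1730 CPM in the named classes, with germ cells at 1358 and somatic cells at 1537 CPM (log2 ratio -0.18, -0.22 to -0.13). H3f3b ranged more widely, from 1297 CPM in progenitor-like to 4880 CPM in Sertoli-like cells. It had 2396 CPM (2356 to 2437) in germ and 3425 CPM (3376 to 3475) in somatic cells, a log2 ratio of -0.52 (-0.55 to -0.48). Against single classes the ratio was -1.03 for Sertoli-like and -0.33 for peritubular myoid-like cells, but 0.06 for stromal-like and 0.64 for macrophage-like cells. Under a mitochondrial limit of 5% the ratio of germ over somatic cells was 0.07 for H3f3b and 0.18 for H3f3a, so neither direction held under that limit, which left 67 germ cells.

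Among germ cells H3f3b had 2403 CPM in SSC-like (2342 to 2465), 1297 CPM in progenitor-like (1239 to 1357), 2925 CPM in Kit/Stra8 (2831 to 3021) and 4633 CPM in Prss50/Esx1 cells (4426 to 4848). No interval overlapped another. The interquartile range over cells was 930.1 to 1552 CPM for progenitor-like and 2098 to 3849 CPM for differentiating-like cells, without overlap. That of SSC-like cells, 1580 to 2754 CPM, overlapped the range of differentiating-like cells. The log2 ratio was -0.89 (-0.97 to -0.81) for progenitor-like over SSC-like, 1.37 (1.29 to 1.44) for differentiating-like over progenitor-like and 0.66 (0.58 to 0.74) for the Prss50/Esx1 over the Kit/Stra8 cluster. H3f3b was among the genes on which germ cells were clustered, which bears on these values. With cells clustered on one set of UMIs and measured in the other, the first 2 ratios were -0.87 and 1.28, and with histone and cell cycle genes left out of clustering they were -0.77 and 1.21. H3f3a hardly took part: its log2 ratio was 0.10 for progenitor-like over SSC-like cells, 0.00257 for differentiating-like over progenitor-like cells and -0.38 for the Prss50/Esx1 over the Kit/Stra8 cluster. The balance therefore moved from 1.84 H3f3b UMIs per H3f3a UMI in SSC-like cells (1.76 to 1.92) to 0.928 in progenitor-like (0.871 to 0.989), 1.97 in Kit/Stra8 (1.86 to 2.09) and 4.07 in Prss50/Esx1 cells (3.67 to 4.51). Progenitor-like cells also had less of S phase genes than SSC-like cells (2408 against 4736 CPM) and of G2/M genes (3182 against 7602 CPM). The part of the cell cycle in these H3f3b levels was not tested.

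The linker histones complete the general variants. H1f0 (chromosome 15, 79028450 to 79030504, plus strand) encodes H1.0, a linker histone associated with cells that divide little, and of the general variants it differed most between germ and somatic cells. It had 78.5 CPM (71.3 to 86.2) in germ and 306 CPM (291.4 to 321.2) in somatic cells, a log2 ratio of -1.96 (-2.12 to -1.81). Sertoli-like (311 CPM), stromal-like (342.3 CPM) and peritubular myoid-like cells (381 CPM) were all high, while macrophage-like cells, at 85.3 CPM (62.0 to 114.5), did not differ from germ cells beyond counting error. H1f0 was among the genes used for clustering all cells, and among germ cells as well. In SSC-like cells it had 98.6 CPM (86.5 to 111.8) and in progenitor-like cells 40.8 CPM (31.1 to 52.6). The Kit/Stra8 cluster had 65.2 CPM (51.9 to 80.9) and the Prss50/Esx1 cluster 132.9 CPM (99.9 to 173.5). Progenitor-like cells had the lowest value, but their interval overlapped that of the Kit/Stra8 cluster, and the median cell of both had 0 CPM. After thinning to 5000 UMIs, 20.8% of progenitor-like and 19.7% of Kit/Stra8 cells held an H1f0 UMI. For H1f0 the intervals of SSC-like and Prss50/Esx1 cells overlapped as well. With histone and cell cycle genes left out of clustering, its log2 ratio of progenitor-like over SSC-like cells was -0.96, and with vst -0.98, in place of -1.27 (-1.71 to -0.86). The part of the cell cycle in these H1f0 levels was not tested.

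H1fx (chromosome 6, 87980421 to 87981637, minus strand) encodes the linker histone H1.10 and was sparse. It had 22.7 CPM (18.9 to 27.0) in germ and 12.3 CPM (9.53 to 15.7) in somatic cells, a log2 ratio of 0.88 (0.44 to 1.33). Against single classes the ratio was 0.84 (0.25 to 1.48) for Sertoli-like and 0.83 (0.15 to 1.57) for stromal-like cells. Peritubular myoid-like cells, at 21.6 CPM, did not differ from germ cells beyond counting error (0.07, -0.69 to 0.92). The order within the germline was 15.2 CPM for progenitor-like, 18.4 CPM for SSC-like, 31.0 CPM in Kit/Stra8 and 49.2 CPM in Prss50/Esx1 cells, in which only 1 neighbouring pair, Kit/Stra8 over SSC-like cells, had a log2 ratio whose interval left out 0 (0.75, 0.10 to 1.40). Macrophage-like cells held 0 UMIs, which allows up to 5.81 CPM. One of the 2 annotated genes that overlap H1fx lies on the same strand, so its count is uncertain. H2afx, H2afy, H3f3a, H1f0 and Hist1h2aa overlap annotated genes on the opposite strand, whose reads could be told apart only if strand was used in counting.

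Set against all genes, the members stood out little in the comparisons of germ cell classes for which the share of all genes was computed. Between progenitor-like and SSC-like cells, 0 of 8 were at least 2-fold higher (1.18% of 7025 genes were) and 1 of 8, H1f0, was at least 2-fold lower (4.11% were). Between differentiating-like and SSC-like cells 0 of 8 were higher, where 5.14% of 7315 genes were, and 0 of 8 were lower, where 6.55% were. Between the Prss50/Esx1 and the Kit/Stra8 cluster 1 of 8, again H1f0, was higher, where 7.2% of 4517 genes were, and 0 of 8 were lower, where 10.1% were. Member medians of the log2 ratio were -0.24, -0.04 and 0.32 in these comparisons, those of all genes -0.07, 0.09 and -0.02. For differentiating-like over progenitor-like cells the share of all genes was not computed, so nothing about the members as a set is read there. There the log2 ratios of H3f3b (1.37), H1fx (1.22, 0.49 to 1.998) and H1f0 (1.003, 0.55 to 1.47) were at least 2-fold higher. H2afy (-1.57) was at least 2-fold lower, and the other general variants were not past 2-fold. After thinning to 5000 UMIs, 22.7% of differentiating-like (14.8 to 32.3%) and 20.8% of progenitor-like cells (12.2 to 32.0%) held an H1f0 UMI. For H1fx the shares were 15.5% (8.92 to 24.2%) and 12.5% (5.88 to 22.4%), and both pairs of intervals overlapped. Those of H2afy, 25.8% (17.4 to 35.65%) and 69.4% (57.5 to 79.8%), lay apart, and all thinned cells of both classes held H3f3b.

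Depth was uneven in the Kit/Stra8 cluster, which joined 51 shallow cells (median 4079 UMIs) to 50 others (median 20269 UMIs). Relative to the others, the shallow cells had more H3f3a (1809 against 1399 CPM, log2 ratio 0.37, 0.22 to 0.52) and H2afz (0.30, 0.06 to 0.54) and less H2afv (-0.34, -0.58 to -0.10), while H3f3b differed by less than counting error (-0.05, -0.17 to 0.07). Without the shallow cells the H3f3b log2 ratio of the Prss50/Esx1 over the Kit/Stra8 cluster was 0.65 and that of H1f0 was 1.17, in place of 0.66 and 1.03.

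Because histone genes are known to follow the cell cycle, cells of each large class were divided into tertiles of nearly equal size by the share of their UMIs from S phase genes and, separately, from G2/M genes, lists that hold no member. In somatic cells H2afz, H2afv and H2afx went with the G2/M genes. Between the lowest and highest tertile of Sertoli-like cells, H2afz was 969.7 and 2807 CPM (log2 ratio 1.53, 1.41 to 1.66), H2afv 399 and 896 CPM (1.17, 0.97 to 1.37) and H2afx 138 and 422 CPM (1.61, 1.28 to 1.96). H2afy (0.77, 0.41 to 1.15) and the sparse H1fx (2.36, 0.59 to 4.76) did so too. In stromal-like cells the corresponding log2 ratios were 2.26 (2.03 to 2.496) for H2afz, 1.31 (1.01 to 1.62) for H2afv and 2.60 (2.04 to 3.203) for H2afx. H3f3a and H3f3b lay between -0.08 and 0.25 in both classes. H1f0 was lower in the highest tertile of Sertoli-like cells (-0.69, -0.97 to -0.42) and higher in that of stromal-like cells (0.69, 0.39 to 0.99).

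In SSC-like cells H2afz (-0.04, -0.19 to 0.11) and H2afx (0.03, -0.51 to 0.57) did not differ between these tertiles beyond counting error, whereas H2afv (0.35, 0.20 to 0.50) and H3f3b (0.38, 0.28 to 0.47) were higher in the highest. The lowest tertile of SSC-like cells, however, had 4748 CPM of G2/M genes, near the 4591 CPM of the highest tertile of stromal-like cells and far above the 709.8 CPM of the lowest tertile of Sertoli-like cells, so the tertiles of SSC-like and of somatic cells do not cover the same levels. In progenitor-like cells, with 2310 CPM in the lowest and 4250 CPM in the highest tertile, H2afx had a log2 ratio of 1.003 (0.19 to 1.85) and H2afz 0.25 (-0.00392 to 0.51). With the S phase genes, H3f3b and H1f0 were higher in the highest tertile of SSC-like cells, by 0.76 (0.66 to 0.85) and 0.86 (0.39 to 1.35), and H3f3b by 0.64 (0.54 to 0.73) in that of differentiating-like cells. The differentiating-like class, however, joins the Prss50/Esx1 and Kit/Stra8 clusters. These had 6396 and 5121 CPM of S phase genes, and 4633 and 2925 CPM of H3f3b. The part of this cluster difference in the ratio of 0.64 was not tested. H2afy in differentiating-like cells was lower in the highest G2/M tertile, at 40.1 against 127 CPM (log2 ratio -1.66, -2.46 to -0.94), tertiles whose median depths were 8500 and 17336 UMIs. The part of depth in it was not tested.

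**Figure D4:**
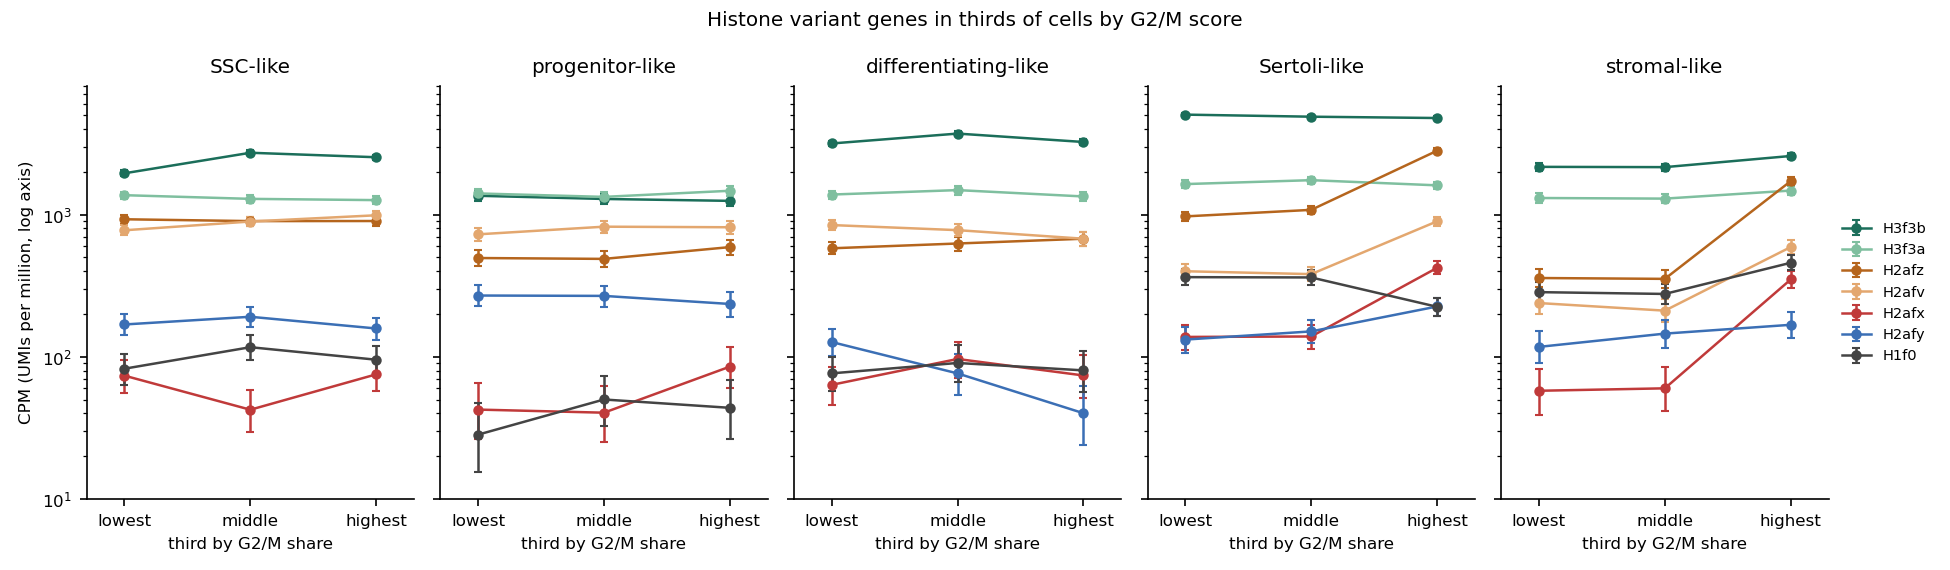
Lines join the CPM (log axis) of 7 general variants over the cells with the lowest, middle and highest share of G2/M genes in each of 5 classes, with exact Poisson 95% intervals. H2afz, H2afv and H2afx climb steeply in the highest tertile of Sertoli-like and stromal-like cells, where H3f3a and H3f3b lie between -0.08 and 0.25 (log2, highest over lowest), and in SSC-like cells H2afz and H2afx stay level while H2afv (0.35) and H3f3b (0.38) are higher.

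The Sertoli-like class was itself of 3 clusters, 1 of which had 45 cells and 11505.9 CPM of G2/M genes, against 1415 CPM in the other 210 cells. This cluster had 3655 CPM of H2afz (3484 to 3832), 1113 CPM of H2afv and 601 CPM of H2afx, and the log2 ratios to the other Sertoli-like cells were 1.63 (1.54 to 1.72), 1.34 (1.18 to 1.501) and 1.99 (1.74 to 2.23). H3f3a (-0.02) and H3f3b (0.03) were equal within counting error there, and H1f0 was lower (-0.85, -1.19 to -0.53). Sertoli-like cells without this cluster had 1181 CPM of H2afz, above every germ cell cluster. They had 151.6 CPM of H2afx (134.3 to 170.6), above all but the Prss50/Esx1 cluster, whose interval overlapped. Their G2/M genes summed to 1415 CPM, where the germ cell clusters had 3182 to 8649 CPM. The part of the cell cycle in these levels was not tested.

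Deposition of variants depends on dedicated chaperones and remodellers, which were followed as lists. Of 13 genes for H2A.Z deposition or removal, among them the remodeller gene Srcap, 5 were at least 2-fold higher in germ than somatic cells. At least 2-fold lower were 0, where 24% of all genes were higher and 26.7% lower. The median log2 ratio of the 13 was 0.56, that of all genes 0.07. Yeats4 (1.62) and Ep400 (1.57) had the largest ratios, and Znhit1 (-0.04) and Vps72 (-0.12) the smallest. All encode subunits of the remodelling complexes that exchange H2A.Z. Srcap had 14.6 CPM (11.6 to 18.1) in germ and 9.89 CPM (7.41 to 12.9) in somatic cells, a log2 ratio of 0.56 (0.04 to 1.09). Anp32e, which encodes the chaperone that removes H2A.Z, was at 1.06. It is 1 of the 5 genes counted as higher and is also on the G2/M list.

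Of 8 genes for H3.3 deposition 1 was at least 2-fold higher and 0 lower, with a median of 0.33, so its share higher was under the 24% of all genes. This was Ubn1 (1.38), a subunit of the HIRA complex, followed by Dek (0.85), an H3.3 chaperone. At the other end were Ubn2 (-0.66) and Atrx (-0.67), the partner of Daxx. Hira itself had 14.2 and 13.8 CPM, a log2 ratio of 0.04. Along the germline Dek was lower in progenitor-like than in SSC-like cells (180.5 against 404 CPM, log2 ratio -1.16). It was the only gene of the 8 past 2-fold in either comparison of germ cell classes. Of the 13 genes for H2A.Z deposition or removal, 0 were. Of all genes, 4.11% were at least 2-fold lower and 1.18% higher in progenitor-like than in SSC-like cells. For differentiating-like over SSC-like cells these shares were 6.55% and 5.14%.

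In the remaining lists, set against the same 24% higher and 26.7% lower of all genes, more than that share was higher in germ cells. At least 2-fold higher were 6 of 7 genes for replication-coupled deposition (median 2.03, led by Nasp at 2.37 and Mcm2 at 2.20), 4 of 7 chaperones of H2A and H2B (median 1.06, led by Ncl at 1.84 and Nap1l1 at 1.67), 4 of 5 genes for CENP-A deposition (median 1.49) and 7 of 10 genes of H2A.X signalling at DNA breaks (median 1.33, led by Atm at 2.15 and Brca1 at 1.997), with 0 lower in each. The smallest ratios were those of Rbbp4 (-0.12) and Slbp (1.34), of Set (-0.19) and Nap1l4 (0.64), of Hjurp (0.98) and Oip5 (1.45), and of Atr (0.57) and Rnf8 (0.66) respectively. H2afx itself went the other way, at -1.46. S phase genes summed to 4339 CPM in germ and 1189 CPM in somatic cells and G2/M genes to 6557 and 2812 CPM, and the lists for replication-coupled and CENP-A deposition share Nasp, Mcm2, Chaf1b, Slbp, Cenpa and Hjurp with the cell cycle lists. Their part in these counts was not tested. In progenitor-like against SSC-like cells Nasp (-1.43, 1 of 7 tested) and Cenpa (-1.63, 1 of 4) were at least 2-fold lower. So were Brca1 (-1.496) and Rnf168 (-1.01), 2 of 10. Of all genes 4.11% were lower there and 1.18% higher. S phase genes summed to 2408 CPM in progenitor-like and 4736 CPM in SSC-like cells. G2/M genes summed to 3182 and 7602 CPM. The part of the cell cycle here was not tested. In differentiating-like against SSC-like cells Chaf1b (-1.32, 1 of 7) and Set (-1.02, 1 of 7) were lower, where 6.55% of all genes were lower and 5.14% higher. Of these lists 0 genes were at least 2-fold higher in either comparison.

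The genes whose levels ran most like those of 4 members were found by Pearson's r of log2(CPM + 1) over 8 points, the 4 germ cell clusters and 4 named somatic classes, among 6530 genes. These r values are descriptive, since the points come from the same library. They were Dek (0.99), Strap (0.98) and Ncapg2 (0.97) for Hist1h2aa, Cd99l2 (0.97), Fopnl (0.96) and Scarb1 (0.96) for H2afx, and Abhd8 (0.98), Ginm1 (0.97) and Acsbg1 (0.97) for H1f0. For Hist1h2ba, with 4 UMIs, Psmc2 (0.87), Akirin2 (0.86) and Lipt2 (0.85) came first, and Hist1h2aa itself rests on 25 UMIs.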

How the data were processed

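The authors aligned reads of 1 wild-type library to mm10 with Cell Ranger 2.1.0 (submitters' notes) and deposited UMI counts per gene and barcode, without normalization. Whether counting used strand, and the gene annotation used, are not given in the sources used here. Barcodes with fewer than 500 genes (10), at least 10% mitochondrial UMIs (36) or a scrublet doublet call (4; scanpy 1.11.5, expected rate 0.01, seed 0) were removed. Doublets that scrublet missed may have stayed. Cells were clustered with Seurat 5.3.0 in R 4.3.3 (mean.var.plot variable genes, 14 principal components, resolution 0.5), germ cells were clustered again, and clusters were named from fixed markers by mean log-normalized expression above that of the other cells, with at least 3 markers detected in 10% of the cells. Members and lists were chosen with earlier results of these data known.

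Levels are summed UMIs per 1000000 UMIs of a class (CPM). Their intervals are exact Poisson, those of ratios exact conditional binomial, those of shares exact binomial, and balances compared between classes have a normal interval on the log scale from 4 counts. A gene entered the counts at 2-fold and the medians with at least 50 UMIs over both classes. Ratios printed for the testis variants fall below this minimum. Cells were thinned to 5000 UMIs for shares. The named genes are the members, the 3 genes most like 4 of them with at least 200 UMIs, and, per list, the 2 largest and 2 smallest log2 ratios, some of which are not reported here. Between germ cell classes genes past 2-fold are named instead, and Srcap, Hira and Anp32e were added, both after values were seen. Scripts were checked on simulated counts. Positions and transcript ends come from GENCODE for GRCm38, the assembly of mm10; near-identical ends were found with BLAST 2.17.0. Counting intervals treat UMIs as independent molecules. Alternatives covered filters, variable genes, resolution, components, count splitting, germ cell selection, denominators, thinning and the minimum count. Leaving out shallow germ cells was added after values were seen.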

Additional observations from a re-analysis of the deposited data

How the results depend on the processing

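No paired analysis was possible because there is 1 library. Of 110 values of the 9 results of the design recomputed under an alternative, 88 stayed within the counting interval or, for counts, within 1.5 times. The log2 balance of H2afz to H2afv between germ and somatic cells (-1.68) was -1.59 with thinned cells, -1.31 with germ cells taken by a UMI of Ddx4 or Dazl and -1.53 as a mean over cells; that of H3f3b to H3f3a (-0.34) was -0.24 by Ddx4 or Dazl and -0.11 under a mitochondrial limit of 5%. The H3f3b log2 ratio of differentiating-like over progenitor-like cells (1.37) was 1.28 with counts split, 1.05 by Ddx4 or Dazl, 1.21 with histone and cell cycle genes left out of clustering, 1.01 at resolution 1.2, 1.21 without ribosomal protein and mitochondrial genes in the total and 1.16 with vst. The H2afz log2 ratio between G2/M tertiles of Sertoli-like cells (1.53) was 1.73 after thinning. Members at least 2-fold higher in differentiating-like than in SSC-like cells numbered 1 in place of 0 without a minimum count (Hist1h2aa) and without shallow germ cells (H1fx). Members at least 2-fold lower there numbered 1 in place of 0, namely Hist1h2ba without a minimum, and H2afy after thinning, with counts split, as a mean over cells, without a mitochondrial limit and without ribosomal protein and mitochondrial genes. Members at least 2-fold higher in germ cells numbered 1 (H1fx) with the 5% limit and 2 (the testis variants) without a minimum, in place of 0. The shares of all genes past 2-fold under these alternatives are not given here, so nothing about the members is read from these counts. Those without a minimum rest on 4 UMIs for Hist1h2ba and 25 for Hist1h2aa.

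Of single gene ratios whose interval leaves out 0, 6 values turned sign: H2afv in progenitor-like over SSC-like cells (-0.17) to 0.085 by Ddx4 or Dazl and 0.034 at resolution 1.2; H3f3a over SSC-like cells, after thinning, to -0.00377 in differentiating-like and -0.00575 in progenitor-like cells; and, under the 5% limit, H3f3a to 0.18 and H3f3b to 0.069 in germ over somatic cells. Ratios whose interval holds 0 turned too: for H1fx to 1.93 and H2afx to 0.00138 in progenitor-like over SSC-like cells after thinning, for H2afx to -0.22 in differentiating-like over SSC-like cells by Ddx4 or Dazl, and for H2afy to -0.49 in germ over somatic cells under the 5% limit. The H2afz ratio of progenitor-like over SSC-like cells (-0.80) ranged from -0.94 to -0.21, that of Hist1h2aa in differentiating-like over SSC-like cells (1.29) from 0.15 to 2.57 and that of H1fx there (0.95) from 0.66 to 2.27. The ratio of Hist1h2ba in germ cells against the floor ranged from -0.46 to 0.45 (log2) and has no sure direction. At resolution 0.3 no SSC-like class, and under the 5% limit no germ cell stage, was named. The cause of these shifts was not tested. With no replicates, spread between mice is unknown, and a gene without UMIs may reach 1.23 CPM in SSC-like cells and 7.39 CPM in the Prss50/Esx1 cluster.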

Other observations

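Other variant genes gave further values. H2afy2, which encodes macroH2A2, had 118.9 CPM (101.8 to 138.1) in progenitor-like cells, 98.2 CPM (86.1 to 111.4) in SSC-like cells, 13.5 CPM in the Kit/Stra8 cluster (7.88 to 21.7) and 0 UMIs in the Prss50/Esx1 cluster (up to 7.39 CPM), a log2 ratio of -3.26 for differentiating-like over SSC-like cells. Its paralogue H2afy gave -0.99 in the same comparison. In somatic cells H2afy2 ran from 7.75 CPM in macrophage-like to 109.4 CPM in peritubular myoid-like cells. H2afj, another H2A variant gene, was highest in macrophage-like cells, at 323.6 CPM (276.4 to 376.6), against 108.6 to 189.6 CPM in the germ cell clusters. Cenpa, which encodes the centromeric H3, was at 145.9 CPM in progenitor-like against 450.3 CPM in SSC-like cells (log2 ratio -1.63) and is on the G2/M list. Of the 14 other variant genes listed, 11 were in the files and 4 reached 50 UMIs over germ and somatic cells. Of these 4, 2 (Cenpa and Hist3h2ba) were at least 2-fold higher in germ cells and 0 lower, where 24% and 26.7% of all genes were. Hist3h2ba is counted again among the clustered histone genes below.

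H2bfm, an H2B family gene that was singled out after its values were seen, had 18 UMIs, 0 of them in somatic cells, 5 in the Kit/Stra8 cluster and 12 in the Prss50/Esx1 cluster (29.5 CPM, 15.3 to 51.6). It was among the leading genes of that cluster. The variants of later male germ cells Hist1h1t, H1fnt, Hils1, H2afb1 and H2afb2, and the oocyte linker histone gene H1foo, had 0 UMIs and H2afb3 had 2.

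Although they are thought to lack poly(A), 64 of 66 clustered histone genes had a UMI. Together they had 233.7 CPM (209.5 to 260) in progenitor-like, 659.7 CPM (627.9 to 692.7) in SSC-like and 802.4 CPM (760 to 846.7) in differentiating-like cells. Of the 13 with enough UMIs, 11 were at least 2-fold lower in progenitor-like than in SSC-like cells, where 4.11% of all genes were. S phase genes summed to 2408 CPM in progenitor-like and 4736 CPM in SSC-like cells. Germ and somatic cells differed in which of these genes were counted: of 25, 13 were at least 2-fold higher in germ cells, led by Hist1h2bm (61 UMIs against 1, log2 ratio 5.88, 3.35 to 11.2) and Hist1h1a (27.5 against 1.31 CPM), and 4 were lower, with Hist1h2bc (8.28 against 141.6 CPM) and Hist3h2a (2.88 against 54.9 CPM) at the end, where 24% of all genes were higher and 26.7% lower. Hist1h2bc was highest in Sertoli-like cells, at 234.4 CPM (215 to 255).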
